A study of Mus musculus with 359 samples.

Results

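The 10 genes described here mark ciliated cells of the airway epithelium or belong to the programme that builds them. They were listed by name: Foxj1, Tppp3, Ccdc153, Rsph1, Sntn, Dynlrb2, Mlf1, Tekt1, Ccno and Foxn4. Earlier results of these data were known when the list was made, so a call on a member is not independent of that choice. The members make up 10 of the 24421 gene symbols in each counts table, and all 10 passed the filter on low counts in each of the 3 lung tables. RNA sequencing of whole lung was used to follow them in male and female B6C3F1 mice, a hybrid laboratory strain, given 4-methylimidazole (4-MEI), an imidazole found in caramel colours. For 2 days the compound was given by gavage at 50, 100, 200 or 300 mg/kg-d, and for 5 or 28 days it was mixed into the feed at 150, 300, 1250 or 2500 ppm. Each day and sex had its own vehicle group at dose 0. The labels name no transgene, deletion or age. Of the 30 lung groups, 29 held 6 libraries, and the females fed 2500 ppm for 5 days held 5, so there were 60, 59 and 60 lung libraries at days 2, 5 and 28.

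Motile cilia line the conducting airways and move mucus out of the lung. A cell that becomes multiciliated leaves the cell cycle, makes many centrioles at once, docks them at its surface as basal bodies and grows an axoneme from each. Foxj1, a forkhead transcription factor, switches on the genes of the motile axoneme. Ccno encodes cyclin O, which the mass production of centrioles needs. Foxn4 is a second forkhead factor, known from Xenopus embryos to act with Foxj1 in multiciliated cells. The other 7 members are used mainly as markers or structural genes of the finished cilium. Tekt1 encodes a tektin, a filament of the axonemal microtubules, Rsph1 a radial spoke protein, Dynlrb2 a light chain of dynein motors, Sntn (sentan) a protein of the ciliary tip and Tppp3 a tubulin-binding protein. Ccdc153 and Mlf1 are used here as markers only.

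Lung library totals ranged from 7253910 to 20232366 counts at day 2, from 8081043 to 21473135 at day 5 and from 11692340 to 18207432 at day 28. At day 28 the labels contradict each other: the characteristics gave another dose than the sample title in 48 lung libraries and another sex in 24. Groups were taken from the titles. Y-linked transcripts fitted the sex of the title in every lung library and went against the characteristics in those 24, and the doses could not be checked in this way. Libraries are named below by the number in their title, and nothing in the labels says that a number pairs animals of different groups.

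The stretches before the transcription start are shown because Ccno and Foxn4, the members whose values stand apart from the rest in the results, also differ from each other in a sequence that many cilium genes share. RefSeq promoter sequences (build GRCm38.p6) were matched for 7 of the 10 members, namely Ccdc153, Sntn, Dynlrb2, Mlf1, Tekt1, Ccno and Foxn4. Each window was searched over the 250 bases before the start, on both strands, for GTTGCC, a core of the X-box bound by RFX factors, and for TGTTTA, a core forkhead motif. GTTGCC was found before 6 of the 7, all but Foxn4, and before 11.82% of the 27025 genes in the table. TGTTTA was found before 2 of the 7, Sntn and Mlf1, against 13.54% of all genes. Both motifs were chosen with the members' sequences in view, and a match is a description of letters, not of a bound site. Capitals mark GTTGCC in the following stretches, which run 5′ to 3′ along the gene's strand and leave out annotated exons (GENCODE).
Ccno, chr13:112987552-112987801, plus strand: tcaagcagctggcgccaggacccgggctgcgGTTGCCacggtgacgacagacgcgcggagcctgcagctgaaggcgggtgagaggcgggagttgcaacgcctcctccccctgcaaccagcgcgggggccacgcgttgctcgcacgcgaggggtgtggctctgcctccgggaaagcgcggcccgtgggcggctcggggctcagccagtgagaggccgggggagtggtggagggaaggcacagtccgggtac
Foxn4, chr5:114273808-114274011, minus strand: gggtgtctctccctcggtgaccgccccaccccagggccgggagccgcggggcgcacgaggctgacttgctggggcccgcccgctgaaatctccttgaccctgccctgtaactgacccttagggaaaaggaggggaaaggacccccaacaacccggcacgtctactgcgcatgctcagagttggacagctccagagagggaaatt
Mlf1, chr3:67373847-67374096, plus strand: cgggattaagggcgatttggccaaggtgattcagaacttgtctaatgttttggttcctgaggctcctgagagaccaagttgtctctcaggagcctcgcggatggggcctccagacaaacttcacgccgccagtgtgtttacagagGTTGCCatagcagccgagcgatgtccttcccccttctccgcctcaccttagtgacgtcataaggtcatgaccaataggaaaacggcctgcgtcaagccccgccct
Dynlrb2, chr8:116504765-116504973, plus strand: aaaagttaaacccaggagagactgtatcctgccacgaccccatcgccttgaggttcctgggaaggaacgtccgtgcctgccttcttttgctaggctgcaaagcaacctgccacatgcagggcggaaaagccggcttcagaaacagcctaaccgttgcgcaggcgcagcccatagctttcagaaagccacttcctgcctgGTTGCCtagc
The distance of the motif from the start varied among the members. Its first base lay 219 bases before the start in Ccno, 66 bases before it in Sntn and 51 bases before it in Dynlrb2. Tekt1 held it in both orientations, at 15 and 35 bases before the start. These distances are to the RefSeq start. For Tekt1 that start lies downstream of the GENCODE one, and its window (chr11:72361883-72362132) lies inside the gene as GENCODE places it.

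In vehicle lungs the members spanned a wide range of levels per length of exon, given as CPM, counts scaled to the size of the library, per kb. Tppp3 was highest, with a median of 225.7 CPM per kb over 36 vehicle libraries. Dynlrb2 followed with 47.5 and Foxj1 with 33.1 CPM per kb. Ccdc153 and Rsph1 came next at 24.1 and 23.9 CPM per kb, a difference within their spread of 14.1 to 38.1 for Ccdc153 and 13.8 to 34.8 for Rsph1. Sntn had 15.1 CPM per kb, and Mlf1 and Tekt1 had 10.3 and 10.2, again within their spread. The regulators of centriole production and ciliogenesis other than Foxj1 were much lower: Ccno had a median of 1.28 CPM per kb, between 0.589 and 1.90, and Foxn4 had 0.181, between 0.0773 and 0.370. The order puts the structural genes of the cilium above the early regulators Ccno and Foxn4, whose vehicle ranges did not overlap each other or those of the other 8. Rsph1 and Mlf1 share bases with a gene on the opposite strand, and since the strand setting of the counting is not given in the sources used here, their levels may include reads of that gene.

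No members are neighbours in the genome (GRCm38.p6). Foxn4 is at chr5:114254164-114273807 on the minus strand and Ccno at chr13:112987802-112990777 on the plus strand. Foxj1 (chr11:116330704-116335399) and Tekt1 (chr11:72344722-72362442) share chromosome 11 on the minus strand. Tppp3 (chr8:105467493-105471526, minus strand) and Dynlrb2 (chr8:116504974-116515915, plus strand) share chromosome 8. Ccdc153 is at chr9:44240676-44247306 (plus strand), Sntn at chr14:13670876-13683148 (plus strand), Rsph1 at chr17:31255019-31277383 (minus strand) and Mlf1 at chr3:67374097-67400003 (plus strand).

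**Figure D1:**
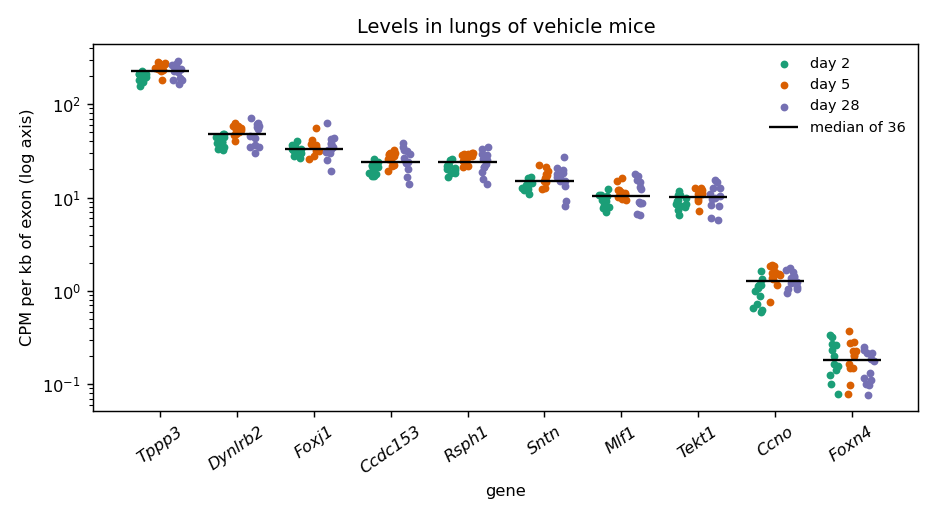
Level of each member in the 36 vehicle lung libraries, in CPM per kb of exon on a log axis, coloured by day; each point is a library and the line is the median of the 36. Tppp3 sits highest at 225.7 and Foxn4 lowest at 0.181 CPM per kb, and Ccno and Foxn4 lie below the other 8.

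Every member had counts in every lung library. Liver, which has no multiciliated epithelium, served as the background: Sntn had 0 counts in 180 of 180 liver libraries, and Ccdc153 and Foxn4 had 3 counts each, summed over all liver libraries. Ccno had a median of 3.17 CPM in lung and 0.598 CPM in liver, and no liver library was at 0. Liver CPM was scaled to the library total alone, without the further scaling between libraries used for lung. Foxj1 and Tppp3 were also counted at a low level in liver, with medians of 0.188 and 0.156 CPM and 19 and 22 liver libraries at 0. Rsph1 and Mlf1 had liver medians of 0.0748 and 0.0752 CPM, with highest values of 1.69 and 1.55 CPM. Foxn4 counts in single lung libraries were small, from 2 to 52, so counting error weighs on each of its values.

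Lung libraries of one group differed in how much ciliated cell RNA they held, and 8 of the 10 members moved as a block. After the mean of its own group was taken from each library's log2 CPM, the 28 pairs among Foxj1, Tppp3, Ccdc153, Rsph1, Sntn, Dynlrb2, Mlf1 and Tekt1 had Pearson correlations from 0.50 to 0.93, with a median of 0.79, over all lung libraries. Tppp3 followed the others least, from 0.50 with Sntn to 0.68 with Ccdc153. Ccno and Foxn4 stood apart: the median correlation with the 8 was 0.29 for Ccno and 0.25 for Foxn4. The standard deviation of a single gene within groups was 0.23 to 0.36 on the log2 scale for the 8, 0.31 for Ccno and 0.52 for Foxn4. In whole lung, more ciliated cells in the piece taken and more RNA of these genes per cell cannot be told apart.

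The block of 8 varied with the club cells, the secretory cells that neighbour ciliated cells in the airway. The mean residual of the 8 correlated with that of 16 club cell markers, among them the secretoglobin Scgb3a2, at r = 0.79 and rho = 0.78 over all lung libraries (permutation test, adjusted p = 4e-05 over 20 relations, from the smallest p the permutations can give). Within days r was 0.71 at day 2, 0.81 at day 5 and 0.82 at day 28, and without the 2 libraries farthest from the median it was 0.79. The same mean followed the library total with r = -0.084 (permutation test, adjusted p = 0.327). Its relation with Ccno was weaker, at r = 0.32 and rho = 0.22 (permutation test, adjusted p = 4e-05 and 0.00877), and rested on day 5 and day 28: at day 2 r was 0.18 and became -0.11 without the 2 farthest libraries. With Foxn4 r was 0.26 and rho 0.27 (permutation test, adjusted p = 0.00123 and 0.00108), and by day r was 0.47, 0.097 and 0.27. Ccno and Foxn4 followed each other with r = 0.19 (permutation test, adjusted p = 0.0173), at 0.087, 0.24 and 0.27 by day, a pair that was added to the analysis later than the rest.

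**Figure D2:**
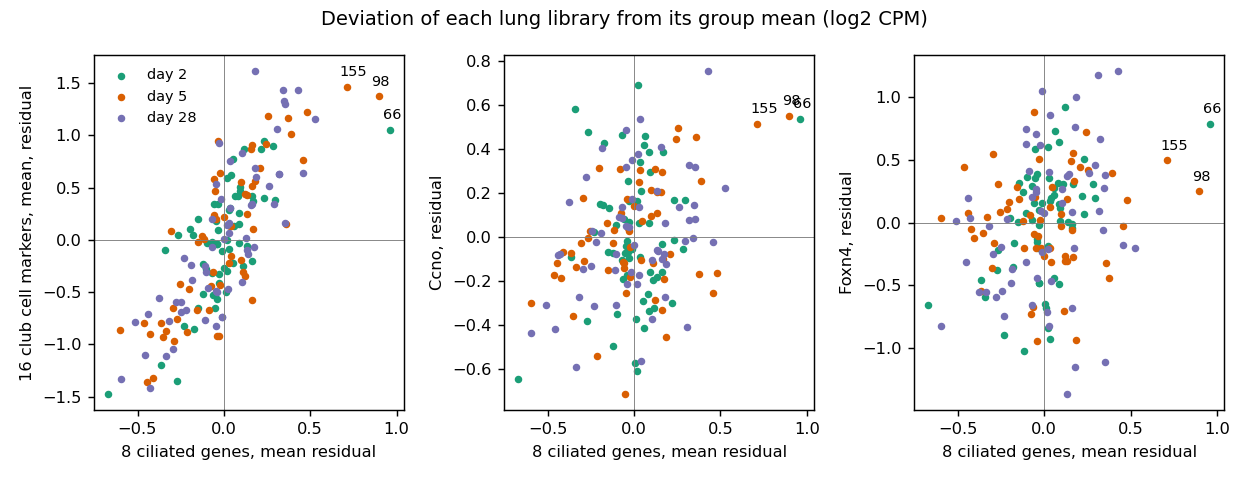
Each point is a lung library, coloured by day; the x axis is the mean deviation of the 8 ciliated genes from the library's group mean in log2 CPM, and the y axes are the same for 16 club cell markers, Ccno and Foxn4. The club cell markers rise with the 8 genes (r = 0.79), Ccno and Foxn4 much less (r = 0.32 and 0.26), and replicates 66, 98 and Lung_155 lie farthest to the right. Low counts of Ccno and Foxn4 add counting error to their points.

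The genes whose residuals were most like those of the block included further cilium genes such as Cfap126. Among 15161 genes compared over all lung libraries, Fam183b (r = 0.94), Cfap126 (0.94), 1700016K19Rik (0.93), Nme5 (0.93) and Ccdc113 (0.93) ranked first, and Scgb3a2 was the 10th with 0.92. No gene followed Ccno or Foxn4, both with low counts, nearly as closely. For Ccno the first was Fbxo36 with 0.43, and Ccna1, a cyclin, was the fourth with 0.41. For Foxn4 the first was Gp2 with 0.41, and Ccdc67, the older name of Deup1 of the deuterosome where centrioles are mass-produced, was the fifth with 0.38.

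The effect of 4-MEI was read for every dose over the vehicle animals of that day and sex. Foxn4 in females fed 2500 ppm for 5 days was the single member called in the 24 dose comparisons, out of 240 gene tests (edgeR quasi-likelihood test, Benjamini-Hochberg adjusted over all genes of a comparison, threshold 0.05). Foxn4 read 1.12, 2.68, 2.145, 1.97 and 1.74 CPM in the 5 females fed 2500 ppm, from 18 to 52 counts each, against a lowest value of 0.264, a median of 0.7105 and a highest value of 1.25 CPM in the 6 vehicle females, from 4 to 20 counts each. The groups overlapped by 1 library, since the lowest female fed 2500 ppm lay below the highest vehicle female. The means were 1.93 ± 0.568 CPM at 2500 ppm (SD, n = 5) and 0.705 ± 0.396 CPM in vehicle (SD, n = 6). Foxn4 rose 2.71-fold, a log2 fold change of 1.44 (SE 0.267, edgeR adjusted p = 0.00818). Few genes moved in this comparison: 5 of 15675 were called, all of them higher, a share of 0.0319%. Over the 24 dose comparisons that share ran up to 8.73%.

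The call on Foxn4 was lost in another fit and without single libraries. With the 2 groups alone in the fit, the log2 fold change was the same 1.44 but the edgeR adjusted p was 0.335. Without vehicle replicate 89 the log2 fold change was 1.301 (adjusted p = 0.0529), and without replicate Lung_155 at 2500 ppm it was 1.296 (adjusted p = 0.0679), by the same edgeR test.

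Foxn4 at the lower feed doses of these females was 0.950 ± 0.177 CPM at 150 ppm, 0.768 ± 0.247 at 300 ppm and 1.08 ± 0.371 at 1250 ppm (SD, n = 6 each), and none was called. Over the dose order from vehicle to 2500 ppm, Foxn4 rose by a log2 change of 0.31 per dose step (SE 0.0595, edgeR adjusted p = 0.019), where 4 of 15675 genes were called, 0.0255%. The call was lost without any one of vehicle replicates 89, 91 and 93 or of 2500 ppm replicates Lung_155 and Lung_158, with adjusted p between 0.0576 and 0.121 and a change of 0.27 to 0.30 per step. Single females at lower doses overlapped those fed 2500 ppm: the highest read 1.167 CPM at 150 ppm and 1.794 CPM at 1250 ppm, above the lowest value at 2500 ppm.

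Ccno was the other member high in the same 5 lungs, but it did not pass the test. Ccno read 6.305, 9.83, 6.145, 6.28 and 6.29 CPM in females fed 2500 ppm, against a lowest value of 3.42, a median of 4.31 and a highest value of 4.865 CPM in vehicle females. The groups did not overlap, which held above vehicle for 0.408% of all genes in this comparison. The log2 fold change was 0.72 (SE 0.17, edgeR adjusted p = 0.125), and replicate Lung_155 was the highest. Without it the log2 fold change was 0.56 (edgeR adjusted p = 0.608). Per dose step Ccno changed by 0.16 (edgeR adjusted p = 0.096), and DESeq2 gave an adjusted p of 0.0393 for the same slope.

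**Figure D3:**
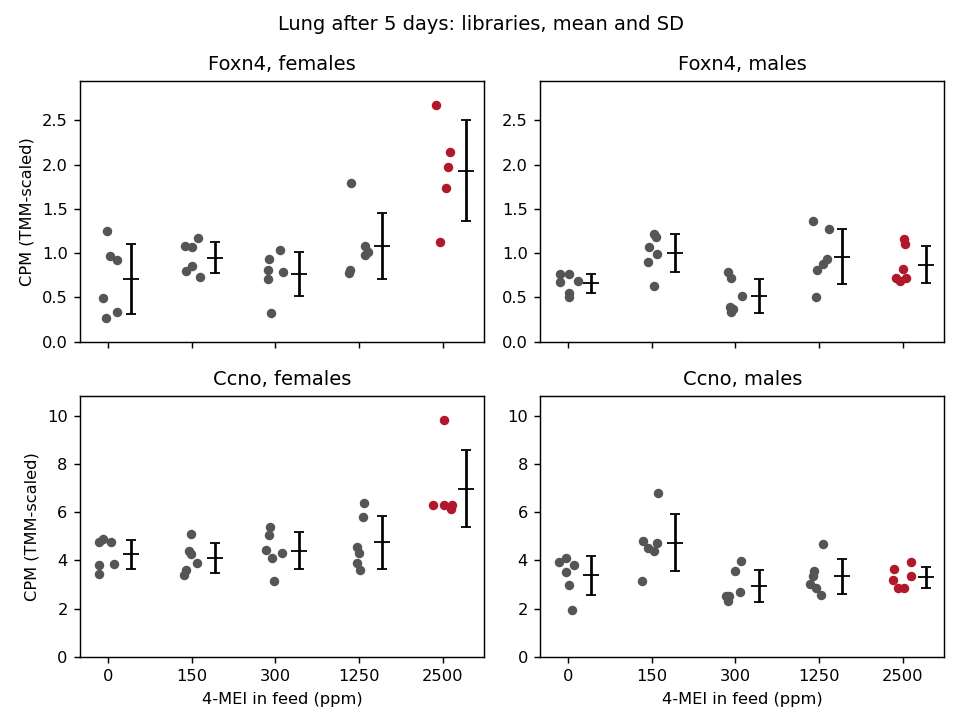
Foxn4 (top) and Ccno (bottom) in lung after 5 days of feeding, females left and males right, in TMM-scaled CPM against the 4-MEI concentration in ppm with vehicle at 0; points are libraries, bars the mean and SD. In females at 2500 ppm Foxn4 averages 1.93 CPM and Ccno lies above every vehicle female, while males at 2500 ppm average 0.869 and 3.30 CPM.

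The 8 genes of the ciliated block had smaller values in these lungs. Their log2 fold changes ran from -0.14 for Tppp3 to 0.34 for Tekt1, with a median of 0.22 against 0.003 over all genes, and none was called. Foxj1 read 107.9, 194.9, 89.97, 77.49 and 94.02 CPM in females fed 2500 ppm, and from 72.9 to 108.6 CPM in vehicle females. Of the 5 values at 2500 ppm, 4 lay within the vehicle range and that of replicate Lung_155 was above it. That library was also rich in club cell markers, 1.46 above its group mean on the log2 scale. The summed club cell markers (16 of 16 detected) ranged from 38550 to 71410 CPM at 2500 ppm and from 42070 to 49390 CPM in vehicle, and 15 of the 16 had a fold change above 0.

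With the level of the club cell markers as a term of the fit, the 8 genes lay between -0.24 for Tppp3 and 0.13 for Tekt1. Dynlrb2 was then at 0.022, Foxn4 at 1.36 (SE 0.261, edgeR adjusted p = 0.0101) and Ccno at 0.64 (SE 0.166, edgeR adjusted p = 0.228). The markers were measured in the same dosed lungs and followed the 8 genes at r = 0.81 at day 5. Lower values of the 8 with the term follow in part from that relation, and the part of cell content was not tested. Without replicate Lung_155 the 8 genes likewise lay between -0.27 for Tppp3 and 0.12 for Tekt1.

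**Figure D4:**
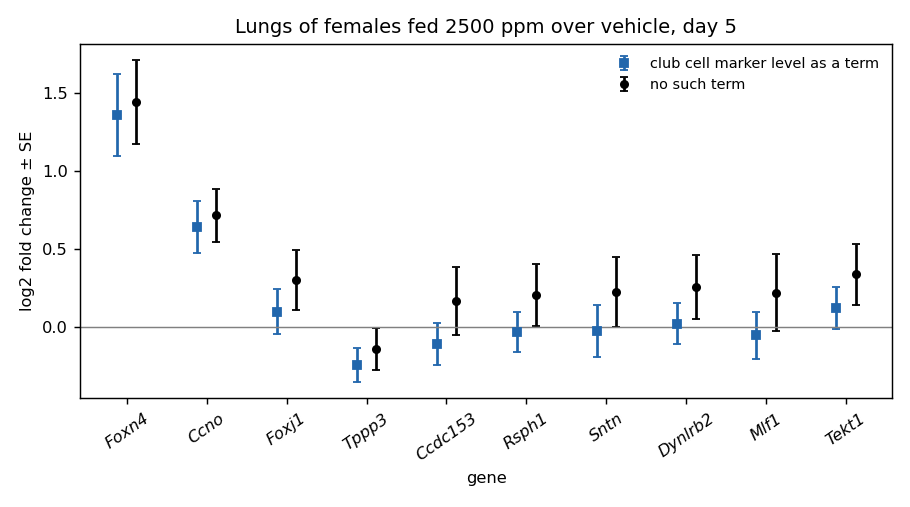
log2 fold change ± SE of the 10 members in lungs of females fed 2500 ppm for 5 days over vehicle, from the fit with the club cell marker level as a term (blue squares) and without it (black circles). Foxn4 is at 1.36 and 1.44 and Ccno at 0.64 and 0.72, and the other 8 are also lower with the term than without it.

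Males fed 2500 ppm for 5 days did not show the same values. Foxn4 averaged 0.869 ± 0.208 CPM at 2500 ppm and 0.659 ± 0.109 in vehicle males (SD, n = 6 each), and Ccno averaged 3.30 ± 0.428 and 3.385 ± 0.803 CPM. The difference between the sexes in the effect of 2500 ppm, female minus male, was 1.06 for Foxn4 (95% interval 0.30 to 1.82) and 0.76 for Ccno (0.28 to 1.23) on the log2 scale. Neither passed the test over all genes (edgeR adjusted p = 1.00 for both), and edgeR called 0 of 15675 genes there, while 549 had an unadjusted p under 0.05 and DESeq2 called 1 gene that was no member.

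After 28 days of the same feed, with doses taken from the titles and not checked, neither gene was high in females. Foxn4 averaged 0.530 ± 0.275 CPM at 2500 ppm and 0.469 ± 0.197 in vehicle, and Ccno averaged 2.995 ± 0.548 and 3.87 ± 0.523 CPM (SD, n = 6 each). The effect of 2500 ppm at day 28 minus that at day 5 was -1.27 for Foxn4 (SE 0.525, edgeR adjusted p = 0.919) and -1.08 for Ccno (SE 0.246, adjusted p = 0.196). In this joint fit edgeR called 0 of 16047 genes, with 840 at an unadjusted p under 0.05, and DESeq2 called 1 gene that was no member.

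**Figure D5:**
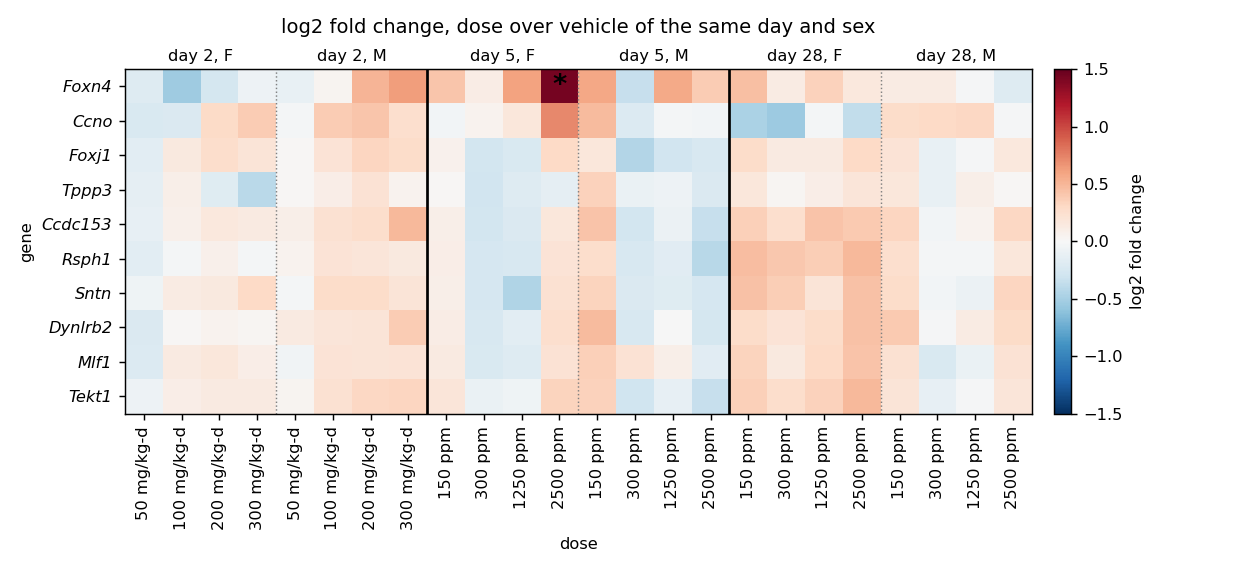
log2 fold change of each member (rows) for each dose over the vehicle group of the same day and sex (columns, in dose order within each day and sex); red is higher and blue lower than vehicle, and the asterisk marks the single call, Foxn4 at 1.44. The 8 genes below Ccno share their colour within most columns.

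At day 2, females given 4-MEI by gavage showed small shifts in many genes, and some members were among them. Over the dose order edgeR called 17.1% of 15240 genes in these females, and 3 of the 10 members: Ccno rose by 0.13 per dose step (SE 0.0432, adjusted p = 0.0329), Sntn by 0.080 (SE 0.0286, adjusted p = 0.0432) and Foxj1 by 0.081 (SE 0.0297, adjusted p = 0.0499). In the upward direction the share of all genes was 8.09%. Without the filter on low counts Ccno alone passed. Without replicate 64 the edgeR adjusted p of Ccno was 0.0579, and without replicate 78 that of Sntn was 0.0871. The club cell term was fitted for single doses, not for the slope. At 300 mg/kg-d it left Foxj1 at 0.030, Sntn at 0.104 and Ccno at 0.26. The median of the 8 genes of the block from 50 to 300 mg/kg-d was -0.174, -0.085, -0.17 and -0.143 with that term. The same medians without it were -0.145, 0.095, 0.138 and 0.12. Ccno averaged 3.10 ± 0.628 CPM in vehicle, 2.64 ± 0.447 at 50, 2.66 ± 0.466 at 100, 3.78 ± 1.06 at 200 and 4.03 ± 1.35 CPM at 300 mg/kg-d (SD, n = 6 each). The means at 200 and 300 mg/kg-d were above vehicle and those at 50 and 100 mg/kg-d below it. Foxn4, not called by edgeR in these females, read 0.6765 to 1.147 CPM in vehicle and 0.34 to 1.231 CPM at 50 mg/kg-d. At 100, 200 and 300 mg/kg-d it read 0.550 to 0.785, 0.413 to 1.14 and 0.334 to 1.425 CPM. These ranges overlapped that of vehicle at every dose, and the highest value, 1.425 CPM, was at 300 mg/kg-d. With the club cell term the log2 fold change of Foxn4 was -0.28, -0.87, -0.755 and -0.47 from 50 to 300 mg/kg-d, none of them called. Such values depend on that term and are not the plain difference between the groups.

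Tppp3, unlike Ccno, Sntn and Foxj1, had lower values in the same animals. It ran from 250.7 to 316.0 CPM, with a median of 284.2, in females given 300 mg/kg-d, against 316.0 to 420.1 CPM, with a median of 383.2, in vehicle females. The highest treated value met the lowest vehicle value. Its log2 fold change was -0.41 (SE 0.145) with an edgeR adjusted p of 0.0639, in a comparison where 8.73% of all genes were called, and the fits with the 2 groups alone or with the club cell term called it. The other 7 genes of the block ran from -0.025 for Rsph1 to 0.30 for Sntn, so the block did not move as one here. Within groups, too, Tppp3 followed the other 7 least.

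In males at day 2 the sign of 4 members at 300 mg/kg-d differed with and without 1 library. At 300 mg/kg-d all 10 members had a log2 fold change above 0, with a median of 0.27 against 0.018 over all genes, and none was called, where 0.21% of all genes were. Dynlrb2 had a highest value of 67.3 CPM in replicate 66 and 13.51 to 21.8 CPM in the other 5 males given 300 mg/kg-d, against 17.95 to 24.5 CPM in vehicle males. Replicate 66 was also 1.05 above its group in club cell markers. Without it the median of the 10 was 0.047, and Tppp3, Rsph1, Dynlrb2 and Mlf1 were at -0.21, -0.16, -0.10 and -0.091. At 200 mg/kg-d the members again lay above 0, from 0.19 to 0.51, without a call. Ccdc153 there ranged from 46.96 to 56.25 CPM, above the 34.3 to 45.9 CPM of vehicle males, which 0.86% of all genes did.

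The feed groups of day 5 other than the females at 2500 ppm gave no call among the members. In males the members were above vehicle at 150 ppm (10 of 10, median 0.35) and below it at 2500 ppm (9 of 10, median -0.24). The first of these rested on replicate 98, in which Tppp3 read 943.9 CPM and the next male of the group 530.6 CPM. Without that library the median was 0.12. Fitted with the club cell term and all libraries, the 8 genes of the block had medians of 0.152 at 150 and -0.188 at 300 ppm. At 1250 and 2500 ppm these medians were -0.21 and -0.208, with 0 of the 8 above 0 at either dose. Over the dose order in males the 8 genes had slopes from -0.127 to -0.062 on the log2 scale per step, with the lowest edgeR adjusted p at 0.103 for Tppp3, in a fit that called 1.28% of all genes. These slopes are from all libraries, with the high replicate 98 at 150 ppm among them. In females fed 300 ppm, Tppp3 lay between 359.8 and 436.2 CPM, below the 447.7 to 517.3 CPM of vehicle females, as 0.97% of all genes did. Its log2 fold change of -0.29 had an edgeR adjusted p of 0.324 in a comparison that called 0.0128% of all genes, though with the 2 groups alone in the fit it was called.

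At day 28, by the doses of the titles, the ciliated block lay above vehicle in females at every dose in the fit without the club cell markers. There was no call among them, where 0.032%, 0.153%, 0.0831% and 0.121% of all genes were called from 150 to 2500 ppm. The median log2 fold change of the 8 was 0.345 at 150, 0.23 at 300, 0.285 at 1250 and 0.43 at 2500 ppm, against medians between -0.014 and 0.004 over all genes. The 4 comparisons share the same 6 vehicle females, in which Tekt1 read from 9.35 to 20.4 CPM, with replicates 171 and 172 lowest. Tekt1 read from 16.7 to 26.3 CPM in females fed 2500 ppm. Its log2 fold change of 0.49 (SE 0.172) had an edgeR adjusted p of 0.232, and the groups overlapped. With the club cell markers as a term it was 0.13. With that term the median of the 8 was 0.23 at 150, 0.06 at 300, 0.174 at 1250 and 0.064 at 2500 ppm, and 5 of the 8 were above 0 at 300 ppm and 6 at 2500 ppm. Foxj1 was then at -0.068 at 300 ppm and -0.089 at 2500 ppm, and Mlf1 at -0.052 and -0.012. The summed club cell markers ran from 37350 to 47140 CPM at 2500 ppm and from 30190 to 49120 CPM in vehicle, and their part in the result was not tested. Ccno had the opposite sign at 300 ppm, with 2.67 ± 0.549 CPM against 3.87 ± 0.523 in vehicle (SD, n = 6 each) and a log2 fold change of -0.54 (edgeR adjusted p = 0.223). In males of day 28 the median over the 8 lay between -0.073 and 0.24.

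Vehicle lungs were also compared by sex and by day, and no member was called. At day 2 Foxn4 averaged 0.915 ± 0.174 CPM in females and 0.431 ± 0.112 in males (SD, n = 6 each), with a log2 difference of 1.08 (SE 0.321, edgeR adjusted p = 0.314), where 0.164% of all genes were called. The female values lay above the male ones without overlap, as they did for 0.696% of all genes. Ccno was higher in females by 0.63, 0.32 and 0.43 at days 2, 5 and 28 on the log2 scale, each short of the threshold with adjusted p of at least 0.322. The 8 genes of the block had log2 differences, female minus male, from -0.46 to -0.22 at day 28, again without a call, where 0.364% of all genes were called, and 0.293% at day 5. Between day 28 and day 5 the members differed by at most 0.59 in vehicle females and 0.31 in vehicle males, where 0.617% and 0.249% of all genes were called, and day and counts table cannot be told apart there.

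The wider pathway was read from lists of genes in the same fits. In females fed 2500 ppm for 5 days no gene was called among 23 tested regulators of multiciliogenesis (median log2 fold change 0.19), 21 axonemal dyneins (0.28), 13 dynein assembly factors (0.21), 22 genes of the radial spokes, central pair and nexin link (0.20), 20 of the axonemal microtubules (0.20), 29 of intraflagellar transport (0.081) and 35 further ciliated cell markers (0.245, with 35 of 35 above 0). These lists were read with replicate Lung_155 included, which lay 0.71 above its group mean in the 8 genes of the block on the log2 scale. They were not refitted without it, and genes that vary together do not count separately. The median over all genes was 0.003, and the medians of these lists had the same sign as that of the club cell markers (0.17), whose part in the result was not tested. Of the basal cell markers 2 of 6 tested were above 0, and of 10 cell cycle genes 1 was. Outside the airway, 8 of 8 adipocyte markers lay above 0 and 0 of 7 tested skeletal muscle markers did, none of them called.

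Genes of these lists were called in females given 300 mg/kg-d for 2 days, where 3.64% of all genes were higher and 5.09% lower. Of 23 regulators 4 rose: Ccp110 by 0.39 (SE 0.1005) and Cep97 by 0.39 (SE 0.1004), which together cap centrioles, Plk4 by 0.38 (SE 0.121), the kinase that starts centriole duplication, and E2f5 by 0.26 (SE 0.0812), a partner of multicilin, with edgeR adjusted p between 0.00835 and 0.0364. Ccdc39, a ruler of the axonemal repeat, rose by 0.46 and Ift74, a carrier of intraflagellar transport, by 0.26 (edgeR adjusted p = 0.0362 and 0.0206). Of 20 genes of the axonemal microtubules 2 fell, Tekt5 by 0.71 and Tuba1a, an alpha-tubulin also used outside cilia, by 0.51 (edgeR adjusted p = 0.00707 and 0.00199). No gene of the dyneins, their assembly factors or the further ciliated cell markers was called in this comparison. Nupr1, 1 of the 16 club cell markers, rose by 0.66 (edgeR adjusted p = 0.0165). In the same lungs 4 of 8 skeletal muscle markers were called higher and 5 of 8 T and NK cell markers lower, and their part in these values was not tested.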

How the data were processed

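The authors deposited 1 table of whole-number read counts per gene for each tissue and day, and 359 samples of liver and lung are labelled. The kit was TruSeq Stranded mRNA, per the labels. Trimmomatic, Bowtie2, SAMtools, HTSeq and build mm10 come from the submitters' processing notes. Their versions and the strand setting are not given in the sources used. In 1 table, 1 column that sums the libraries was not used.

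Each lung table was fitted on its own with edgeR 4.0.16 (limma 3.58.1, R 4.3.3): TMM scaling, filterByExpr, all 10 groups of the day in 1 quasi-likelihood fit with robust dispersion, and Benjamini-Hochberg adjustment over all genes tested (15240 at day 2, 15675 at day 5, 15646 at day 28). Days 5 and 28 were joined for differences between days (16047 genes). There were 40 contrasts with a threshold of 0.05. SE was taken as the fold change (log2) over the root of F, and intervals are 1.96 SE on either side. CPM of lung is TMM-scaled, CPM of liver is scaled to the library total alone, and a slope is the log2 change per dose step. Residuals are log2 CPM (prior count 2) minus the group mean, and correlations had 100000 permutations over 20 relations. Nothing in the labels says that libraries of 1 group differ by more than the animal, so p-values measure the spread between these libraries.

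The scripts were tested on simulated data. All 10 members are described. From the other lists the called genes with the smallest adjusted p were named, up to 4 a list, and the genes most like the members by rank. The members and lists were chosen with earlier results of these data known, the 2 motifs with the promoters in view. The fit without replicate 98 and the pair of Ccno and Foxn4 were added after seeing the data. Alternatives were DESeq2 1.42.0, RLE size factors, no filter, only the 2 groups compared, a term for club cell markers or for the place in the number block, a prior count of 0.5, and single libraries left out.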

Additional observations from a re-analysis of the deposited data

Results flagged for a closer look

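In 32 of 300 combinations of a member and a lung group the highest or lowest library lay far from the others (Dixon's gap over range, past its 95% value). Chance flags about 1 in 20 groups, and members of the ciliated block share their libraries, so these are not independent. All values are in CPM.

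In males fed 150 ppm for 5 days, replicate 98 was highest in all 8 genes of the block: Foxj1 150.9, Tppp3 943.9, Ccdc153 146.2, Rsph1 77.33, Sntn 41.48, Dynlrb2 81.13, Mlf1 46.78 and Tekt1 40.21. In males given 300 mg/kg-d for 2 days, replicate 66 was flagged as highest in Tppp3 (660.4), Ccdc153 (141.5), Rsph1 (61.12), Dynlrb2 (67.33) and Mlf1 (35.79). In females fed 2500 ppm for 5 days, replicate Lung_155 was flagged as highest in Foxj1 (194.9), Rsph1 (68.44), Dynlrb2 (58.77), Tekt1 (33.65) and Ccno (9.829). Replicates 66 and Lung_155 were also highest of their groups in further members without a flag, such as Sntn at 28.14 and 40.29. These 3 libraries were also 1.37, 1.05 and 1.46 above their groups in the mean of the club cell markers on the log2 scale, and the part of that in the values was not tested.

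At day 28, replicate 217 of females fed 1250 ppm stood out in Tppp3 (560.3) and Dynlrb2 (41.72), and replicate 191 of females fed 150 ppm in Foxj1 (141.6). Mlf1 stood out in replicate 238 of females fed 2500 ppm (34.2) and in replicate 212 of males fed 1250 ppm (30.89), and Rsph1 in replicate 209 of the same males (26.3). Ccno stood out in replicate 180 of males fed 150 ppm (5.023), and Foxn4 in replicate 194 of males fed 300 ppm (1.49). At day 5, Foxn4 stood out in replicate Lung_137 of females fed 1250 ppm (1.794), Ccdc153 in replicate 130 of males fed 1250 ppm (38.39) and Rsph1 in replicate 96 of vehicle females (29.46). At day 2, Rsph1 stood out in replicate 52 of males given 200 mg/kg-d (37.74), and Ccno in replicate 43 of females (3.562) and replicate 33 of males (4.18) given 100 mg/kg-d.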

How the results depend on the processing

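Of the counts of members called and the correlations, 238 values under an alternative stayed as reported and 13 moved, and none reversed. A count of 0 that remained 0 is among those that stayed. For the log2 fold changes of single members that were followed, 70 values kept their standing against the threshold, 12 lost a call and 1 gained one. In females fed 2500 ppm for 5 days 1 member was called, and 0 with only the 2 groups compared. Leaving out 1 of the 11 vehicle and 2500 ppm libraries at a time gave 0 to 1 there and 0 to 1 for the slope in these females, where DESeq2 called 2. Libraries at 150, 300 and 1250 ppm were not left out of that slope. In females given 300 mg/kg-d for 2 days 0 were called, but 1 with the club cell term and 1 with only the 2 groups compared. The slope of these females had 3 calls, and 1 without the low-count filter. In females fed 300 ppm for 5 days 0 were called, and 1 with only the 2 groups compared. The causes were not tested. Over these 11, the log2 fold change of Foxn4 lay between 1.28 and 1.68, with an edgeR adjusted p of 0.00129 to 0.0679 and 9 past the threshold. Foxn4 had 2 to 52 counts in a lung library, so counting error adds to its spread. No paired analysis was possible because the compared groups share no replicate number.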
